A study of Mus musculus with 18 samples.

Results

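Serpina1a, Serpina1b, Serpina1c, Serpina1d, Serpina1e, Serpina3k, Serpina3m, Serpina3n, Serpina6 and Serpina7 encode secreted members of the serpin superfamily. They were chosen by name, as the Serpina1 and Serpina3 protease inhibitors that the mouse liver makes in quantity together with the hormone carriers of the same clade. The choice was made with earlier results of these data known, so the counts and tests below are not those of an independently chosen set. These are 10 of the 16245 genes in the count table. All 10 were tested, and none was lost to a filter on low counts. Their RNA was measured by sequencing of whole liver from 18 mice in 3 groups of 6, each library being a separate mouse. All mice were wild-type (WT) male C57BL/6 animals (C57BL/6J background by the study's methods) that were placed on a NASH diet, rich in fat and fructose, and housed at about 29 °C from 8 weeks of age, and that were single-housed during treatment. Vehicle-treated mice received no GDF15. GDF15-treated mice received recombinant GDF15, a circulating hormone that lowers food intake, by subcutaneous injection once daily. The deposited protocol lists 3 doses (0.3, 1 and 5, in nmol per kg) without assigning them to mice, and the study's text gives the dose for the liver libraries as 1 in one place and 5 in another, so the dose behind these livers is uncertain. Pair-fed mice received no GDF15 and were given each day the amount of food that GDF15-treated mice had eaten on the day before. Age at collection was not given in the labels. The comparison with pair-fed mice asks which differences remain when food intake is matched.

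Serpins trap a protease by offering it an exposed reactive centre loop: the protease cuts the loop, stays bound and is dragged across the serpin, which inactivates both. Alpha1-antitrypsin, encoded in the mouse by the Serpina1 paralogs, is made by hepatocytes and guards tissue against neutrophil elastase. The Serpina3 genes are the mouse relatives of human alpha1-antichymotrypsin, and Serpina3n in particular is known as an acute phase gene. Serpina6 (corticosteroid-binding globulin) and Serpina7 (thyroxine-binding globulin) share the fold but inhibit no protease and carry hormones in the blood.

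The libraries held 16508864 to 35301853 counts. None of the 11 hepatocyte markers was at 0 in any group, and their summed level was 1710000 to 2168000 normalized counts with vehicle, 1571000 to 2384000 with pair-feeding and 2393000 to 2782000 with GDF15. Of these markers 9 were higher and 0 lower with GDF15 against vehicle, where 14.3% of all genes tested were higher and 15.8% lower. Markers of 3 other kinds of liver cell were mostly lower with GDF15 against vehicle: 11 of 12 stellate and fibroblast markers (summed 9445 to 16570 with vehicle, 4715 to 7007 with GDF15), 10 of 13 macrophage and neutrophil markers (4564 to 9297 and 2871 to 5870) and 7 of 8 cholangiocyte markers (5506 to 12450 and 3040 to 5561) were lower, and 0 of the 33 were higher. Against pair-fed 9, 8 and 1 of these were lower and 0 higher, where 12.2% of all genes were lower. Of 10 endothelial markers, 1 was higher and 1 lower against vehicle and 0 higher and 2 lower against pair-fed, and their summed levels overlapped (4628 to 6390 with vehicle, 5191 to 6848 with pair-feeding and 3594 to 6585 with GDF15). In whole tissue, more hepatocytes and more RNA per hepatocyte cannot be told apart, and the part of this shift in the serpin results was not tested. GDF15 replicate 4 stood apart in acute phase genes, and GDF15 replicate 6 in Serpina1e. Results for the 10 genes and the acute phase list that rest on them are given with and without them. Some marker counts moved too. Without replicate 4, and likewise without replicate 6, 8 of 13 macrophage and neutrophil markers were lower against vehicle and 5 against pair-fed. Without replicate 4, 4 of 10 endothelial markers were higher and 1 lower against vehicle.

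Of the 10 genes, 9 lie on chromosome 12 within 767705 bases (chr12:103646630-104414334, GRCm38.p6), and Serpina7 lies on chromosome X (chrX:139079249-139085236, minus strand). In order along the chromosome these are Serpina6 (chr12:103646630-103657218), Serpina1b (chr12:103728156-103738189), Serpina1d (chr12:103763587-103773633), Serpina1a (chr12:103853295-103863619), Serpina1c (chr12:103894926-103904950) and Serpina1e (chr12:103946931-103956897), all on the minus strand, followed by Serpina3k (chr12:104338486-104345739), Serpina3m (chr12:104387157-104394259) and Serpina3n (chr12:104406646-104414334) on the plus strand. The coding sequences of the Serpina1 paralogs, each 1239 bases over 5 exons, were 96.3% to 98.5% identical in pairs, Serpina1a and Serpina1c being the closest. Of the 1239 aligned positions, 86 (6.9%) differed in at least 1 paralog, and 18 of the 86 fell in a single stretch of 60 bases. That stretch lies in exon 5, at bases 1101 to 1160 counted from the start codon, in the part that encodes the reactive centre loop. These lines give it as the plainest view of how the paralogs differ, from the GENCODE M21 transcripts (GRCm38, 5′ to 3′ on the minus strand), with capitals at positions where the 5 are not all alike.
Serpina1a: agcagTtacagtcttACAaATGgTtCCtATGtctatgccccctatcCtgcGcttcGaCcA
Serpina1b: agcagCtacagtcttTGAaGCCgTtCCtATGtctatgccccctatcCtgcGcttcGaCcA
Serpina1c: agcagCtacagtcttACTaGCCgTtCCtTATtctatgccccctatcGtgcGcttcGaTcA
Serpina1d: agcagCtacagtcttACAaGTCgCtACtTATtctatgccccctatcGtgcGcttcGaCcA
Serpina1e: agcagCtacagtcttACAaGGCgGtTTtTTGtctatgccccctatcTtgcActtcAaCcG
The stretches lie at chr12:103853757-103853816 for Serpina1a, chr12:103728324-103728383 for Serpina1b, chr12:103895094-103895153 for Serpina1c, chr12:103763762-103763821 for Serpina1d and chr12:103947100-103947159 for Serpina1e.

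The likeness of the paralogs bears on every value that follows. Reads were 50 bases long in pairs, and the counts are Salmon estimates in which a read that matches several transcripts is divided among them. Only 19.1% of the 50-base stretches of the Serpina1a transcript occur in no other gene, against 25.8% for Serpina1c, 49.1% for Serpina1d, 52.9% for Serpina1b and 62.1% for Serpina1e. The pseudogene Gm8893 shares such stretches with all 5 and was not analysed here. Among the Serpina3 genes 80.9% (Serpina3m), 86.0% (Serpina3k) and 93.1% (Serpina3n) of the stretches were unique, with coding identities of 91.7% between Serpina3k and Serpina3m, 83.0% between Serpina3k and Serpina3n and 85.2% between Serpina3m and Serpina3n. Serpina6 and Serpina7 shared no 50-base stretch with another gene. The level of a single Serpina1 paralog is therefore uncertain, and the paralogs are also given as sums.

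**Figure D1:**
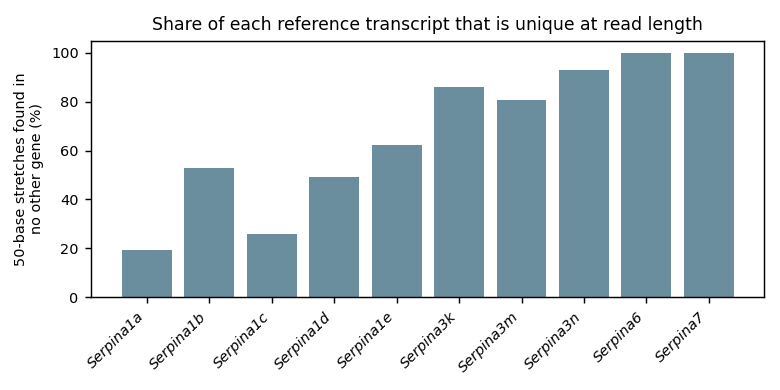
Percent of the 50-base stretches of each gene's reference transcript that occur in no other gene (bars). Serpina1a is lowest at 19.1%, and the bars of Serpina6 and Serpina7 reach the full height.

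GDF15 treatment was accompanied by more RNA from 9 of the 10 genes compared with vehicle, with Serpina7 as the exception. With an adjusted p under 0.05 in DESeq2, 9 of 10 were higher and 0 lower, where 30.1% of all 16242 tested genes passed, 14.3% higher and 15.8% lower. The 10 genes together took 1.62% ± 0.251 of all counts with vehicle (SD, n = 6, range 1.32% to 2.01%), 1.74% ± 0.19 with pair-feeding (1.47% to 2.0%) and 2.55% ± 0.236 with GDF15 (2.37% to 3.01%), so the GDF15 range lay above both others. With the study's own added threshold of an absolute log2 fold change above 1, 3 of the 10 passed (Serpina1c, Serpina1e and Serpina3k), where 5.66% of all genes did. Without GDF15 replicate 6, Serpina1c alone passed both (1.05), Serpina3k being at 0.89 and Serpina1e no longer passing the adjusted p. Compared with pair-fed controls the same 9 of 10 were higher, where 24% of all genes passed, 11.8% higher and 12.2% lower, and 1 passed both thresholds (Serpina1e), where 2.98% did. Serpina1c, at 1.00, lay at that threshold, and leaving out 1 liver at a time gave 1 to 2 members. Both comparisons use the same GDF15 livers and are not independent of each other. The median log2 fold change of all genes was near 0 (−0.002 against vehicle and −0.005 against pair-fed). The DESeq2 size factors that scale the libraries bring this median close to 0, so it cannot show whether RNA shifted as a whole.

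**Figure D2:**
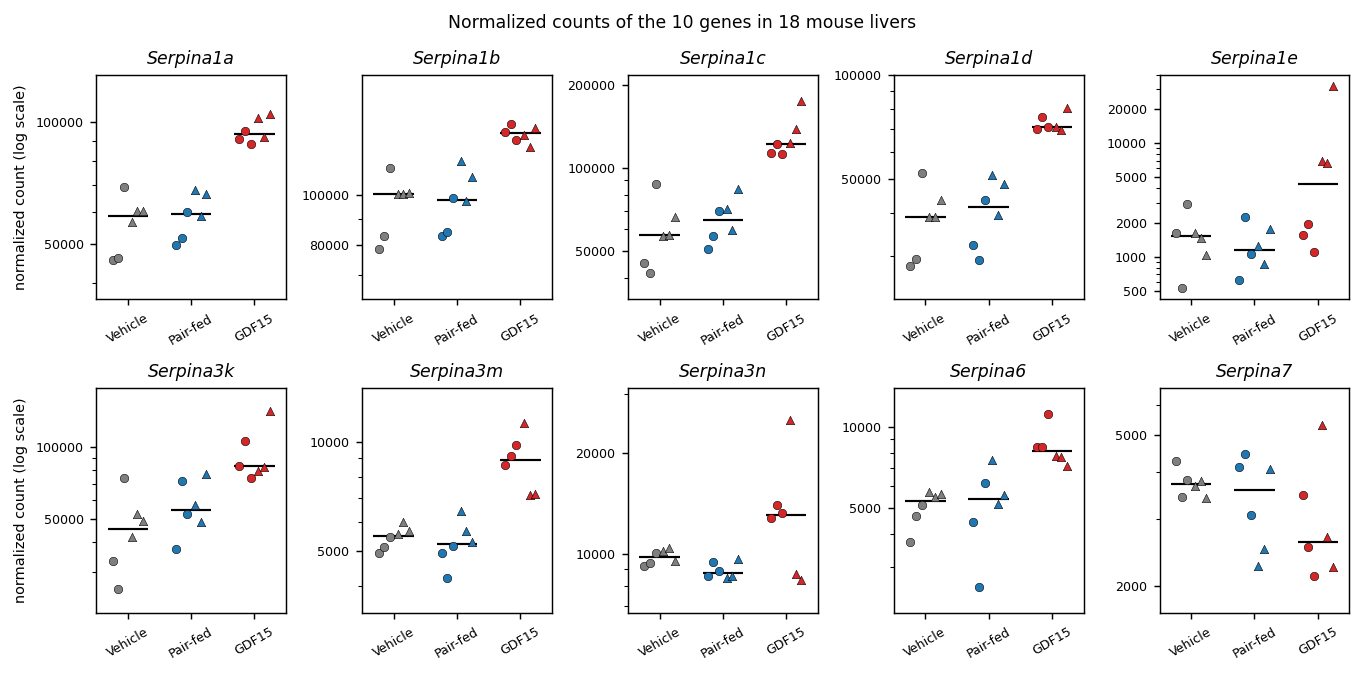
Normalized counts (log axis, 1 panel a gene) in each of the 18 livers by group, with circles for replicates 1 to 3, triangles for replicates 4 to 6 and a bar at the group median. The 6 GDF15 livers sit above all 12 others for Serpina1a to Serpina1d and Serpina3m, split by replicate number for Serpina1e, and include values below the vehicle range for Serpina3n and Serpina7.

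Among the alpha1-antitrypsin genes, Serpina1a was at 45540, 58430 and 69050 normalized counts with vehicle (lowest, median and highest of 6), at 49770, 59210 and 67890 with pair-feeding and at 88330, 93650 and 105000 with GDF15. The 6 GDF15 livers all lay above the 12 others. The log2 fold change was 0.77 (SE 0.10, DESeq2 adjusted p = 8.23e-12) against vehicle and 0.70 (SE 0.10, adjusted p = 9.53e-10) against pair-fed. Serpina1b, the most abundant paralog without GDF15, was at 78610, 100800 and 113100 with vehicle, at 83550, 98040 and 116500 with pair-feeding and at 124200, 132100 and 137300 with GDF15. Its groups did not overlap either, but its rise was the smallest of the 5, with log2 fold changes of 0.45 (SE 0.09, DESeq2 adjusted p = 1.53e-05) and 0.42 (SE 0.09, adjusted p = 7.92e-05).

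Serpina1c was at 41700, 56840 and 87290 normalized counts with vehicle, at 50910, 64620 and 83770 with pair-feeding and at 112600, 122400 and 174300 with GDF15. All GDF15 livers were again above all others, and the level was about 2.21 times that of vehicle (DESeq2 adjusted p = 1.74e-10 for a log2 difference of 1.14, SE 0.16) and 2.00 times that of pair-fed (1.00, SE 0.16, adjusted p = 5.02e-08). The 95% confidence intervals of Serpina1c (0.83 to 1.46) and Serpina1b (0.27 to 0.63) against vehicle did not overlap. Both come from the same livers and leave out the uncertainty in dividing shared reads, and the difference between the 2 paralogs was not tested. Serpina1d was at 28010, 38780 and 52240 with vehicle, at 29110, 41490 and 51360 with pair-feeding and at 69400, 70910 and 80380 with GDF15, without overlap, giving log2 fold changes of 0.92 (SE 0.15, DESeq2 adjusted p = 1.96e-08) and 0.84 (SE 0.15, adjusted p = 5.18e-07). The spread between mice was narrower with GDF15 than in either control for Serpina1a, Serpina1b and Serpina1d, with coefficients of variation of 6.98%, 3.63% and 5.95% against 16.2%, 13.4% and 23.5% with vehicle and 12.5%, 13.1% and 21.8% with pair-feeding. No test of spread was run. Vehicle replicate 3 was the highest vehicle liver for all 5 paralogs and for Serpina3k.

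Serpina1e, the least abundant paralog, behaved differently from mouse to mouse. It was at 528.2, 1529 and 2927 normalized counts with vehicle, at 619.5, 1153 and 2234 with pair-feeding and at 1095, 4326 and 32030 with GDF15. GDF15 replicates 1 to 3 (1095 to 1927) lay inside the vehicle range, and replicates 4 to 6 (6725, 6992 and 32030) lay above every control liver. The log2 fold change was 2.46 (SE 0.67, DESeq2 adjusted p = 0.00174) against vehicle and 2.70 (SE 0.67, adjusted p = 0.000679) against pair-fed. Without GDF15 replicate 6 it was 1.26 against vehicle (DESeq2 adjusted p = 0.0536) and no longer passed, whereas against pair-fed it was 1.5 and still passed (adjusted p = 0.0213, the highest with any 1 liver left out). In replicates 1 to 3 of each group alone it was −0.14 against vehicle (DESeq2 adjusted p = 0.915) and 0.23 against pair-fed (adjusted p = 0.85), and in replicates 4 to 6 alone it was 3.48 against vehicle (adjusted p = 2.54e-05). The labels do not say that the numbers mark a batch.

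**Figure D3:**
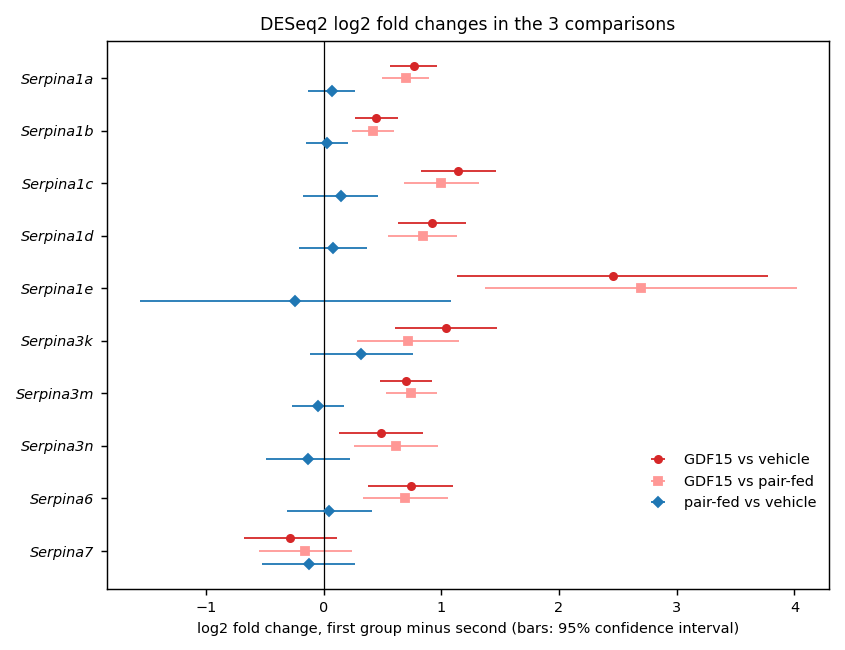
DESeq2 log2 fold changes (points) with 95% confidence intervals (bars) of the 10 genes for GDF15 against vehicle, GDF15 against pair-fed and pair-fed against vehicle. The intervals of 9 genes lie above 0 in both GDF15 comparisons, that of Serpina7 spans 0, and all 10 span 0 for pair-fed against vehicle.

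The Serpina1 sum, which does not depend on how reads were divided among the 5 paralogs, was 251600 ± 47220 normalized counts with vehicle (SD, n = 6, range 199000 to 324600), 264500 ± 39660 with pair-feeding (217000 to 308800) and 439100 ± 45170 with GDF15 (401400 to 526900). Every GDF15 liver was above every control liver. The difference in mean log2 level was 0.82 (SE 0.12) against vehicle and 0.74 (SE 0.11) against pair-fed, with an exact two-sided permutation p of 0.00216 in each (the smallest that 6 against 6 livers can give) and a Benjamini-Hochberg value of 0.00324 over 9 tests. Leaving Serpina1e out of the sum gave 0.80 and 0.72 (exact p = 0.00216 in each), so the sum did not rest on that paralog. As a share of all counts the sum was 1.27% ± 0.176, 1.33% ± 0.153 and 1.98% ± 0.163 in vehicle, pair-fed and GDF15 livers.

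**Figure D4:**
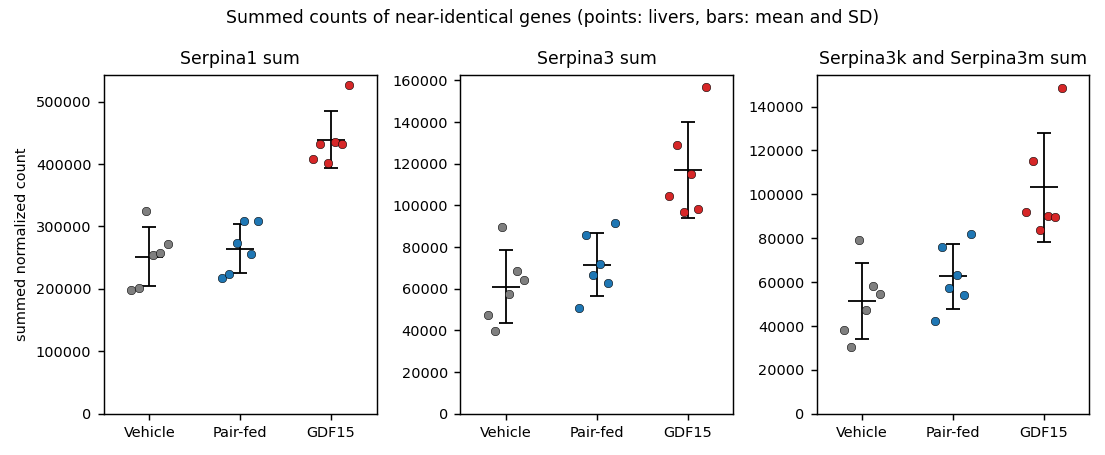
Summed normalized counts of the Serpina1 paralogs, of Serpina3k, Serpina3m and Serpina3n, and of Serpina3k with Serpina3m, by group, with each liver as a point and the mean and SD as bars. GDF15 livers lie above all control livers in all 3 sums.

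The rise also exceeded that of albumin, the main secreted product of hepatocytes, whose own log2 fold change was 0.42 (SE 0.11, DESeq2 adjusted p = 0.00107) against vehicle and 0.41 against pair-fed. Within each library, Serpina1 counts were 20.3% ± 1.83 of the albumin (Alb) counts with vehicle (range 18.3% to 23.2%), 21.7% ± 2.78 with pair-feeding (18.1% to 25.8%) and 26.7% ± 1.98 with GDF15 (24.2% to 29.2%). This ratio needs no scaling between libraries. It was higher by 0.40 on the log2 scale against vehicle (exact permutation p = 0.00216), without overlap, and by 0.31 against pair-fed (exact permutation p = 0.00866), where 4 of 6 GDF15 livers lay above all pair-fed livers. This denominator was chosen after the data were seen. Albumin lay at the median of the 11 hepatocyte markers against vehicle (0.42). The other markers named by the same rule were Hpd (0.94), Fgb (0.73), Ahsg (0.64), Apoh (0.43) and Ttr (0.17). The Serpina1 sum (0.82) therefore did not rise more than every hepatocyte marker.

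The make-up of the Serpina1 counts differed as well. Serpina1b took 38.6% ± 2.29 of them with vehicle (34.8% to 41.5%), 37.2% ± 1.31 with pair-feeding (35.1% to 38.5%) and 30.2% ± 2.6 with GDF15 (25.7% to 32.6%), the GDF15 range lying below both others. Serpina1c moved the opposite way, from 23.2% ± 2.17 (20.8% to 26.9%) and 24.6% ± 1.62 (23.1% to 27.1%) to 29.6% ± 2.39 (27.7% to 33.1%), again without overlap. Serpina1a kept a similar share in all groups (22.5%, 22.4% and 21.9%), and Serpina1d took 14.1% to 16.1% with vehicle, 13.0% to 16.7% with pair-feeding and a mean of 16.7% ± 0.941 with GDF15. Serpina1e had 0.592% ± 0.245, 0.496% ± 0.262 and 1.72% ± 2.22, reaching 6.08% in GDF15 replicate 6. Shares are described without a test, since they depend on how Salmon divided shared reads. Serpina1c is the paralog nearest in sequence to Serpina1a.

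**Figure D5:**
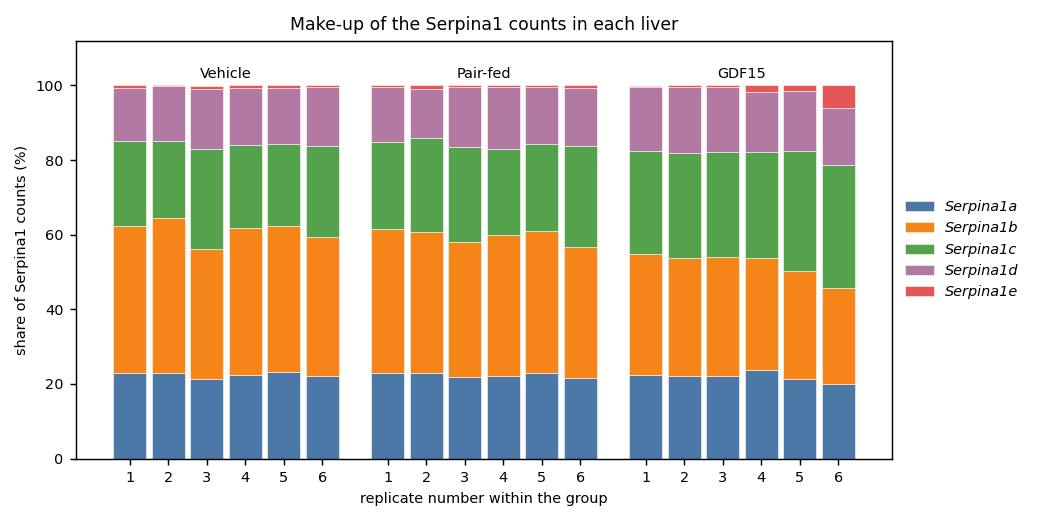
Share of the Serpina1 counts taken by each paralog (stacked bars, percent) in each liver, by group and replicate number. Serpina1b takes 25.7% to 32.6% in GDF15 livers against 34.8% to 41.5% with vehicle, and Serpina1c 27.7% to 33.1% against 20.8% to 26.9%.

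Per kilobase of transcript, a scale on which different genes can be set side by side, Serpina1b ranked first of the 10 with vehicle at 69100 ± 9240 normalized counts per kb, followed by Serpina1c (43400 ± 12100), Serpina1a (41400 ± 6690), Serpina1d (27600 ± 6460) and Serpina3k (22300 ± 8250). The range of each of these overlapped that of the next in rank across livers, including Serpina1b (56400 to 81100 per kb) and Serpina1c (30600 to 64100). All genes were measured in the same livers, and pairs of genes were not compared liver by liver. The other 5 were far lower, with Serpina3n at 4740 ± 233, Serpina3m at 3300 ± 236, Serpina6 at 3150 ± 479, Serpina7 at 1600 ± 133 and Serpina1e at 1180 ± 620 per kb. The ranges of Serpina3m and Serpina6 overlapped, as did those of Serpina7 and Serpina1e. Pair-fed livers had the same first 6 places, with Serpina1b at 70500 ± 9260. With GDF15, the ranges of Serpina1c (95900 ± 17200) and Serpina1b (94400 ± 3430) overlapped. Their means were ahead of those of Serpina1a (70400 ± 4920), Serpina1d (52300 ± 3110) and Serpina3k (45900 ± 12400). Serpina7 was then last, at 1310 ± 514 per kb.

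Among the antichymotrypsin relatives, Serpina3k, also known as contrapsin, was by far the most abundant. It was at 25250, 45280 and 73930 normalized counts with vehicle, at 37300, 54580 and 76790 with pair-feeding and at 73970, 82870 and 141500 with GDF15. All GDF15 livers were above all vehicle livers, the lowest by a narrow margin, and 5 of 6 were above all pair-fed livers. The log2 fold change was 1.04 (SE 0.22, DESeq2 adjusted p = 3.72e-05) against vehicle and 0.72 (SE 0.22, adjusted p = 0.00743) against pair-fed. With replicates 1 to 3 alone it was 0.99 and 0.70 and did not pass (DESeq2 adjusted p = 0.121 and 0.295). Against pair-fed Serpina3k passed whichever liver was left out, in some cases narrowly. It was 0.68 without GDF15 replicate 2 (DESeq2 adjusted p = 0.0496, the highest) and 0.57 without GDF15 replicate 6 (adjusted p = 0.0402). Serpina3m, its close neighbour, was at 4930, 5510 and 6022 with vehicle, at 4217, 5231 and 6457 with pair-feeding and at 7124, 8900 and 11290 with GDF15. Its GDF15 livers lay above all others, with log2 fold changes of 0.70 (SE 0.11, DESeq2 adjusted p = 1.92e-08) and 0.75 (SE 0.11, adjusted p = 2.27e-09).

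Serpina3n also varied widely among the GDF15 livers. It was at 9208, 9774 and 10390 normalized counts with vehicle, at 8475, 8752 and 9637 with pair-feeding and at 8359, 13030 and 24980 with GDF15. GDF15 replicates 1 to 3 (12820 to 14000) and replicate 4 (24980) lay above all control livers, whereas replicates 5 and 6 (8720 and 8359) lay below all vehicle livers. The log2 fold change of 0.49 (SE 0.18, DESeq2 adjusted p = 0.0273) against vehicle no longer passed without GDF15 replicate 4 (0.23, adjusted p = 0.124), without vehicle replicate 1 or 2 (0.47 in each, adjusted p = 0.0582 and 0.056) or in a fit of the 12 livers of those groups (0.49, adjusted p = 0.0596). Against pair-fed it was 0.61 (SE 0.18, DESeq2 adjusted p = 0.00505), and it passed whichever liver was left out (highest adjusted p = 0.0129), although without GDF15 replicate 4 it was 0.35.

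GDF15 replicate 4 was also the highest GDF15 liver for other acute phase genes. It held 68460 normalized counts of Saa1 (serum amyloid A) where the next GDF15 liver held 11370, 7558 of Lcn2 (lipocalin 2) where the next held 1120, and 122700 of Itih4 where the next held 59260. The part of whatever set this liver apart in its Serpina3n level was not tested. Over all genes tested, 14.3% were higher against vehicle and 11.8% against pair-fed. Of 21 acute phase genes, 10 were higher and 0 lower with GDF15 against vehicle (median log2 fold change 0.57), and 11 higher and 0 lower against pair-fed (0.63). Those with the lowest p were C3 (0.75, SE 0.12, DESeq2 adjusted p = 4.76e-08), Fgb (0.73), Saa4 (0.88) and Fgg (0.68), which encode complement, fibrinogen chains and a constitutive serum amyloid A. Saa1 had a log2 fold change of 1.82 (SE 0.77, DESeq2 adjusted p = 0.0527), and Lcn2 one of 0.30 (SE 0.75) with no adjusted p. Without GDF15 replicate 4 the list split, with 9 higher and 5 lower against vehicle and a median of 0.08, and against pair-fed 9 were higher and 1 lower (Hpx, −0.27) with a median of 0.32. The 5 lower genes against vehicle were then Orm2 (−1.20, DESeq2 adjusted p = 0.0312), Lcn2 (−1.36, 0.0317), Hp (−0.34, 0.0262), Hpx (−0.41, 0.000128) and Cp (−0.21, 0.0337), singled out after their values were seen, while Fgb (0.59), C3 (0.59) and Hamp (2.12), the hepcidin gene, stayed higher.

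The Serpina3 sum was 61090 ± 17490 normalized counts with vehicle (39750 to 89430), 71550 ± 15070 with pair-feeding (50840 to 91730) and 116900 ± 23000 with GDF15 (97030 to 157000). GDF15 livers lay above all others. The mean log2 level was higher by 0.96 (SE 0.20) against vehicle and by 0.71 (SE 0.17) against pair-fed, each with an exact two-sided permutation p of 0.00216 (0.00324 after Benjamini-Hochberg adjustment over 9 tests). The sum of Serpina3k and Serpina3m alone gave 1.05 (SE 0.24) and 0.72 (SE 0.19) with the same p-values. Relative to albumin in the same library the Serpina3 sum was 4.89% ± 0.934 with vehicle, 5.99% ± 1.86 with pair-feeding and 7.08% ± 1.11 with GDF15. This ratio was higher against vehicle (0.54, exact permutation p = 0.00649) but not beyond the spread against pair-fed (0.28, exact permutation p = 0.165).

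The hormone carriers diverged. Serpina6, the plasma carrier of corticosterone, was at 3703, 5293 and 5727 normalized counts with vehicle, at 2534, 5362 and 7495 with pair-feeding and at 7155, 8101 and 11190 with GDF15. All GDF15 livers were above all vehicle livers and 5 of 6 above all pair-fed livers. The log2 fold change was 0.74 (SE 0.18, DESeq2 adjusted p = 0.000454) against vehicle and 0.69 (SE 0.18, adjusted p = 0.00145) against pair-fed. In replicates 4 to 6 alone the latter was 0.32 and did not pass (DESeq2 adjusted p = 0.0781).

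Serpina7 was at 3409, 3719 and 4257 normalized counts with vehicle, at 2255, 3569 and 4451 with pair-feeding and at 2129, 2616 and 5312 with GDF15. In 4 GDF15 livers it was below all vehicle livers, and in replicate 4 above all of them. The log2 fold change was −0.28 (SE 0.20, 95% confidence interval −0.67 to 0.11, DESeq2 adjusted p = 0.286) against vehicle and −0.15 (SE 0.20, −0.55 to 0.24, adjusted p = 0.613) against pair-fed. Without GDF15 replicate 4 it was −0.51 against vehicle and passed (DESeq2 adjusted p = 0.00854), whereas against pair-fed it was −0.38 and did not (adjusted p = 0.0645).

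Genes around the hormones that these carriers bind were examined beside them, and were listed with earlier results known. Over all genes tested, 14.3% were higher against vehicle and 11.8% against pair-fed. Of 17 genes of glucocorticoid action, 11 were higher and 0 lower with GDF15 against vehicle (median log2 fold change 0.65), and 9 higher and 0 lower against pair-fed (0.54). They included Hsd11b1, which regenerates active glucocorticoid (0.75, SE 0.14, DESeq2 adjusted p = 7.77e-07), the co-chaperones Fkbp5 (1.32, SE 0.30, adjusted p = 0.000102) and Fkbp4 (0.34), Akr1d1 (0.59), which clears steroids, and the glucocorticoid receptor gene Nr3c1 (0.21, SE 0.06, adjusted p = 0.00257). Of 15 genes of thyroid hormone transport and action, 3 were higher and 2 lower in each GDF15 comparison. Of all genes, 30.1% passed in either direction against vehicle and 24% against pair-fed, so the count against vehicle was near that share. Slc16a10, a transporter of aromatic amino acids and thyroid hormone, was higher (1.01, SE 0.08, DESeq2 adjusted p = 4.39e-30), as were Klf9 (0.58), a factor that responds to thyroid hormone and glucocorticoid, and Rxra (0.42), a partner of nuclear receptors, and Hr, which encodes a corepressor, was lower (−2.34, SE 0.41, adjusted p = 2.99e-07). Transthyretin (Ttr, 0.17, SE 0.09, adjusted p = 0.15) and the deiodinase Dio1 (−0.11, SE 0.08, adjusted p = 0.304) did not pass.

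Pair-feeding alone moved none of the 10 genes past the threshold. DESeq2 called 0 of them and 0 genes of the whole table (0% of 16242) in pair-fed against vehicle livers, with 718 genes at an unadjusted p under 0.05, and edgeR also called 0, with 620 at that level. The adjusted p was 0.998 for each of the 10. Estimates were close to 0 with narrow intervals for Serpina1a (0.07, 95% confidence interval −0.13 to 0.27) and Serpina1b (0.03, −0.15 to 0.21). They were wider for Serpina3k (0.32, −0.11 to 0.76), Serpina6 (0.05, −0.31 to 0.41) and Serpina1e (−0.24, −1.56 to 1.08), and in these a moderate difference cannot be told from none. The Serpina1 sum differed by 0.08 (SE 0.14, exact two-sided permutation p = 0.556) and the Serpina3 sum by 0.25 (SE 0.21, exact permutation p = 0.264). In Serpina3n, 4 of 6 pair-fed livers lay below all vehicle livers (log2 fold change −0.13, SE 0.18).

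Over all genes tested, 14.3% were higher and 15.8% lower against vehicle, and 11.8% higher and 12.2% lower against pair-fed. Among 13 other genes of the Serpina locus, 2 were higher and 0 lower with GDF15 against vehicle, namely Serpina3c (1.07, SE 0.21, DESeq2 adjusted p = 5.95e-06) and Serpina11 (0.58, SE 0.14, adjusted p = 0.000168). Serpina10, the protein Z-dependent protease inhibitor, had a log2 fold change of 0.23 (SE 0.13, DESeq2 adjusted p = 0.153) and was 1 of the 11 that did not pass. Against pair-fed 2 of the 13 were higher and 1 lower. The median log2 fold change of the 13 was 0.13 against vehicle and −0.31 against pair-fed, and only 10 and 9 of them had an adjusted p. Without GDF15 replicate 6 the median was −0.29 against vehicle, with 2 higher and 1 lower. Against pair-fed it was then −0.49, with 3 higher and 2 lower. The sign of the median against vehicle thus depended on that liver. Of 10 serpins secreted from other loci, 6 were higher and 2 lower in each GDF15 comparison (median 0.40 against vehicle). The higher ones included antithrombin (Serpinc1, 0.40), heparin cofactor II (Serpind1, 0.41), C1 inhibitor (Serping1, 0.61) and angiotensinogen (Agt, 0.45), which are hepatocyte products. Of 10 intracellular clade B serpins 1 was higher (Serpinb1a, 0.89) and 3 lower (Serpinb9, −0.47, Serpinb6b, −1.08, and Serpinb6a, −0.48) against vehicle. Only 5 of these 10 had an adjusted p. Against pair-fed 1 was higher and 2 were lower, and Serpinb6a did not pass (−0.35, DESeq2 adjusted p = 0.0585).

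Of 15 listed proteases that such inhibitors meet, 3 were higher and 2 lower in each GDF15 comparison, and only 10 had an adjusted p. Among all genes, 30.1% passed in either direction against vehicle and 24% against pair-fed, so the count against vehicle was near that share. Plasminogen (Plg, 0.57, SE 0.09, DESeq2 adjusted p = 4.08e-09) and plasma prekallikrein (Klkb1, 0.51) were higher, and macrophage elastase (Mmp12, −2.30, SE 0.30, adjusted p = 1.67e-12) and Prss8 (−0.76) were lower. Neutrophil elastase (Elane), the main target of alpha1-antitrypsin, was at means of 2.15, 1.96 and 3.51 normalized counts in vehicle, GDF15 and pair-fed livers, too few to show a difference at this depth. Of 14 genes that fold, export or degrade alpha1-antitrypsin in the secretory pathway, 4 were higher and 0 lower against vehicle, namely the degradation factor Edem1 (0.42, SE 0.09, DESeq2 adjusted p = 7.42e-05), the cargo receptor Lman1 (0.33), Uggt1 (0.36) and Sel1l (0.21), and 1 was higher against pair-fed. For these 14 genes the share called lay close to that of all genes in either direction against vehicle (30.1%) and below it against pair-fed (24%). Counting higher genes only, the share over all genes was 14.3% against vehicle and 11.8% against pair-fed.

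Of 18 known regulators of serpin transcription, 8 were higher and 1 lower with GDF15 against vehicle (median log2 fold change 0.22), and 7 higher and 0 lower against pair-fed (0.22). The shares of all genes that were higher were 14.3% against vehicle and 11.8% against pair-fed. Hnf4a, a master factor of hepatocytes, was higher (0.54, SE 0.06, DESeq2 adjusted p = 3.93e-15), as was Foxa3 (0.51, SE 0.13, adjusted p = 0.000703), another hepatocyte transcription factor. The receptor genes Il1r1 (0.99, SE 0.17, DESeq2 adjusted p = 1.4e-07) and Il6ra (0.99, SE 0.29, adjusted p = 0.00411), through which interleukins act on hepatocytes, were higher too. Whether any of these moved the serpin genes was not tested.

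The genes whose levels ran most closely with the members across the 18 livers were ranked by Pearson's r of log2(normalized count + 1) among 10873 genes, as a description. The r pools all groups and the libraries share their scaling, so a gene that differs between GDF15 and control livers ranks high whatever else sets its level. Among the nearest to the Serpina1 sum were Cyp2d10 (r = 0.983), Haao (0.976), 1300017J02Rik (0.972) and Serpinf1 (0.97), another secreted serpin. Nearest to the Serpina3 sum were the complement gene C8b (0.957), Slc22a28 (0.943), Cyp4f14 (0.937), Gjb1 (0.934) and Acsm1 (0.929). Serpina3n ran with Prg4 (0.933), Serpina10 (0.916), C4b (0.888), Lrg1 (0.882) and Itih4 (0.877), of which Prg4 and Itih4 were both highest in GDF15 replicate 4. Serpina6 ran with Sqor (0.949), Upp2 (0.936), BC024139 (0.934), Asgr2 (0.932) and Papss2 (0.927). Serpina7 ran with Cp (0.877), Isyna1 (0.864), Klhdc4 (0.848), Syt12 (0.829) and Mrpl16 (0.828), less closely than the others.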

How the data were processed

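Total RNA of 18 livers was sequenced in 50-base pairs, and the authors used Trim Galore for trimming and Salmon for transcript quantification (mm10, per the submitters' processing notes, versions not given in the sources used here). The deposited table holds estimated counts per gene symbol, as whole numbers, for 16245 genes with a total of at least 5, from 16508864 to 35301853 counts per library. The submitters' notes also name DESeq2. A count of 0 in a library allows up to 3 counts, a limit for counting error only.

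All 18 livers were fitted together in DESeq2 1.42.0 (R 4.3.3) with group as the only term, Wald tests and Benjamini-Hochberg adjustment over all genes tested. Normalized counts are counts divided by DESeq2 size factors. Sums were tested with exact two-sided permutation tests on log2(normalized count + 1) with scipy 1.17.1. Scripts were tested on simulated data. Alternatives were edgeR 4.0.16, TMM library sizes, a filter of 10 counts in 6 libraries, fits of 12 livers and a replicate block. Subsets by replicate number, leaving out each liver and, for the sums, scaling by the total count of each library were others. The members and gene lists were chosen with earlier results of these data known. All 10 members are named. From each list up to 4 genes with the lowest p in GDF15 against vehicle (mean of at least 50 normalized counts) are named, plus Alb, Hnf4a, Nr3c1, Il6ra, Hsd11b1, Ttr, Dio1, Elane, Saa1 and Lcn2, and up to 5 most alike genes. Some genes that this rule would name are not reported here. Gene positions came from RefSeq (GRCm38.p6) and transcripts from GENCODE M21, and coding sequences were aligned with MAFFT 7.526. Groups came from the GEO labels.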

Additional observations from a re-analysis of the deposited data

Results flagged for a closer look

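In 4 of 39 groups of 6 values (10 genes and 3 sums in 3 groups) 1 liver stood farther from the rest than Dixon's 95% limit for 6 samples, with the gap measured as a share of the range, where chance alone gives about 1.95. All were GDF15 livers. Serpina1e was at 32030 normalized counts in GDF15 replicate 6, with the next at 6992, a gap of 0.809 of the range. The Serpina1 sum in the same liver was 526900, with the next at 434600 (0.736). Serpina3n was at 24980 in GDF15 replicate 4, with the next at 14000 (0.66), in the liver that was also highest in Saa1, Lcn2 and Itih4. Serpina6 was at 11190 in GDF15 replicate 3, with the next at 8399 (0.692). Causes were not tested. Without these livers the Serpina1 sum and Serpina6 still passed against both controls, whereas Serpina1e (replicate 6) and Serpina3n (replicate 4) no longer passed against vehicle.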

How the results depend on the processing

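Counts of members called were 9, 9 and 0 for GDF15 against vehicle, GDF15 against pair-fed and pair-fed against vehicle with edgeR, TMM library sizes, the filter and the replicate block, and 8, 9 and 0 in fits of 12 livers. They were 3 and 1 in the GDF15 comparisons once an absolute log2 fold change above 1 was also required (1 to 4 and 1 to 2 when 1 liver was left out, with 1 against vehicle without GDF15 replicate 6). Leaving out 1 liver at a time gave 8 to 9 members against vehicle, 9 against pair-fed and 0 for pair-fed against vehicle. The sums kept their direction and their side of the threshold when any 1 liver was left out (Serpina1 0.76 to 0.90 against vehicle and 0.69 to 0.79 against pair-fed, Serpina3 0.85 to 1.08 and 0.62 to 0.79, Serpina3k with Serpina3m 0.91 to 1.18 and 0.61 to 0.81). With replicates 1 to 3 and 4 to 6 alone, 3 livers against 3 cannot go below an exact p of 0.1, which each sum reached: 0.82 and 0.82 (Serpina1 against vehicle), 0.80 and 0.67 (against pair-fed), 0.99 and 0.94, 0.73 and 0.70 (Serpina3), 1.09 and 1.00, 0.75 and 0.70 (Serpina3k with Serpina3m). With albumin as the denominator, against pair-fed, the Serpina3 sum gave 0.28 (exact permutation p = 0.165). Serpina3k with Serpina3m gave 0.29 (exact permutation p = 0.199). Scaled by the total count of each library instead of size factors, each sum rose less with GDF15. The Serpina1 sum gave 0.65 against vehicle and 0.57 against pair-fed (exact permutation p = 0.00216 in each). The Serpina3 sum gave 0.79 and 0.55 (exact permutation p = 0.00216 in each). For Serpina3k with Serpina3m the values were 0.87 (exact permutation p = 0.00216) and 0.56 (exact permutation p = 0.013). The size of the rise thus depended on the scaling, and its direction did not.

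Of the members' log2 fold changes, 194 of 210 kept direction and side of the threshold over settings other than leaving out 1 liver, and 346 of 360 when 1 liver was left out. Reversed were, with replicates 1 to 3 alone, Serpina1e against vehicle (−0.14) and, for pair-fed against vehicle, Serpina1b (−0.04), Serpina1d (−0.063), Serpina6 (−0.035) and Serpina7 (0.019). With replicates 4 to 6 alone Serpina7 against pair-fed (0.22) and Serpina3m for pair-fed against vehicle (0.008) reversed. Leaving out 1 liver reversed 9 values, all for pair-fed against vehicle and all near 0 (Serpina1b −0.026 to 0.08, Serpina1e −0.467 to 0.05, Serpina3m −0.112 to 0.01, Serpina6 −0.082 to 0.19). With replicates 1 to 3 alone Serpina7 passed in both GDF15 comparisons (−0.49 and −0.51, DESeq2 adjusted p = 0.0374 and 0.0283), Serpina1e against pair-fed (0.23) and Serpina3k did not pass, and with replicates 4 to 6 alone Serpina3n did not (0.48 and 0.66, DESeq2 adjusted p = 0.522 and 0.363). The cause was not tested.

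The correlation across genes of same-numbered livers averaged −0.03 for GDF15 with vehicle and 0.03 for GDF15 with pair-fed. For pair-fed with vehicle it averaged 0.20 and was positive in 6 of 6 pairs (0.04 to 0.60), against −0.04 for livers of different number. Since the labels tie the numbers to nothing, only 2, 3 and 4 of 6 pairs exceeded 0.1 and only 1, 3 and 3 of 12 livers correlated best with their own number, the numbers were not taken to pair the mice. The replicate block changed no call of a member (9, 9 and 0), lowered Serpina1e against vehicle to 1.67 (DESeq2 adjusted p = 0.0404), and gave the Serpina1 sum 0.82 and 0.74 with an exact sign-flip p of 0.0312. Depth does not limit the members other than through shared reads, which limit the split among the Serpina1 paralogs.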
